A study of Mus musculus with 20 samples.

Results

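Cadherins and protocadherins are the calcium-dependent adhesion molecules that join cells of like kind. The set described here holds the 94 genes, of 23402 rows in the deposited table, whose symbol is Cdh followed by a number or begins with Pcdh. The rule reads symbols only and no measured value, but the family was singled out with earlier results of these libraries known, so its counts are a description and not independent support. By structure the set comprises 5 type I and 13 type II classical cadherins, 5 other cadherins, 12 non-clustered protocadherins, and the clustered protocadherins with 15 alpha, 22 beta and 22 gamma genes. The clusters were assigned by symbol. Pcdha4-g, counted as alpha here, spans 889 kb and ends at the same base as the gamma gene Pcdhgc3.

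The RNA came from MC38 tumours grown under the skin. MC38 is a line of mouse colon adenocarcinoma cells. Control tumours (10 libraries) received vehicle, and P.T.ATBx tumours (10 libraries) were given ATBx around the tumour. ATBx commonly abbreviates antibiotic treatment. The labels name no agent, dose, schedule, host strain or age, nor whether the libraries are from separate animals. The p-values thus measure only how these samples spread, part of which may be technical. The study's title links microbes in tumours to interferon signalling, and the comparison asks how tumour RNA differed after local ATBx.

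Classical cadherins bind the same cadherin on the next cell through their outer domains, and hold the actin skeleton through catenins bound to their tails. Type I members include the epithelial and neural cadherins, and type II members include the endothelial cadherin and several that are best known from brain circuits. Protocadherins have similar outer domains but no catenin-binding tail. The clustered ones lie side by side on 1 chromosome, and in neurons each cell uses a few of them as a surface identity.

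Levels are given in FPKM (fragments corrected for gene length and library size), and were tested as log2(FPKM + 1) in limma for the 12788 genes with a mean of at least 0.5 FPKM. Each difference is the P.T.ATBx mean less the Control mean of these log2 values, where changes of low genes appear too small, and adjusted p-values (Benjamini-Hochberg, over all genes tested) under 0.05 count as called. Relative depth, read from the spacing of low values, ran from 0.810 to 1.28 between libraries, and summed FPKM from 556770 to 752782. In bulk tumour RNA, fewer cells of a type and less RNA per cell cannot be told apart.

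Pcdh9, Pcdh10, Cdh10, Cdh18, Cdh19, Pcdhb16 and Pcdhb17 were higher in P.T.ATBx tumours, by 1.27 to 1.71 times in mean FPKM. No member was called lower. The other 42 tested members, among them the abundant endothelial cadherin Cdh5, the neural cadherin Cdh2, the mesenchymal cadherin Cdh11 and the top gamma protocadherin Pcdhgc3, showed no difference past the threshold. Of the 49 members that passed the filter, 7 were called higher (14.3%), where 0.461% of all genes tested were called higher (59 genes), 0.383% lower (49 genes) and 0.845% in either direction (108 genes). At an unadjusted p under 0.05, 14 members were on the higher side and 1, Cdh1, on the lower, where 1738 of all genes tested (13.6%) were on either side. The tested members had a median difference of 0.04, with 32 positive and 17 negative, and all genes tested had a median of 0.00. With all libraries rescaled to an equal sum, the whole table had 20 higher and 29 lower genes, and 4 members were higher, namely Pcdh9, Pcdh10, Cdh10 and Cdh18. Without the 4 libraries of highest summed FPKM (Control 1 and 3, P.T.ATBx 1 and 4), 3 members were called higher, Pcdh9, Pcdh10 and Pcdhb17.

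**Figure D1:**
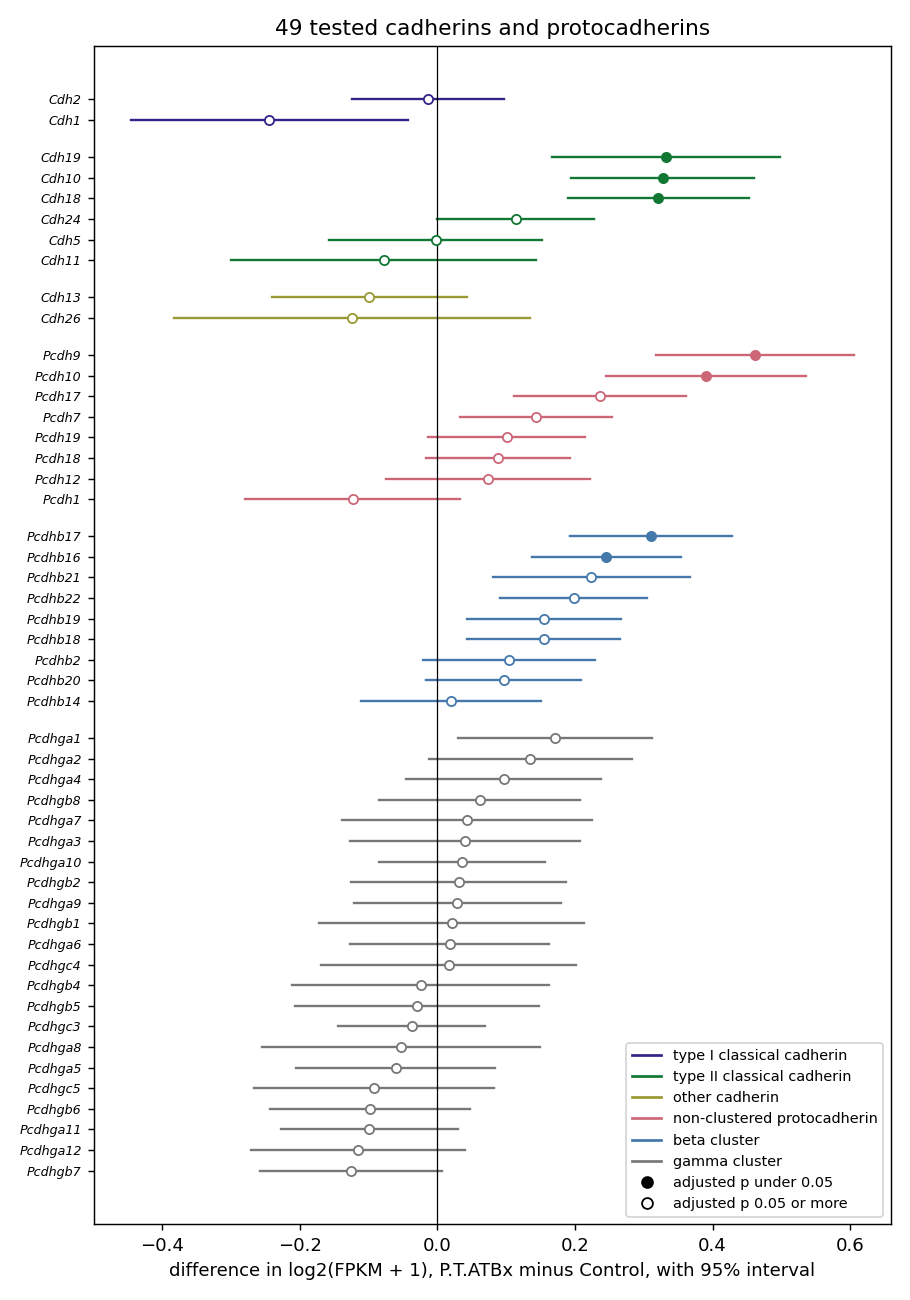
Difference between groups for the 49 tested cadherins and protocadherins, by class. The horizontal axis is P.T.ATBx minus Control in log2(FPKM + 1), points are limma estimates, lines are 95% intervals and filled points passed an adjusted p under 0.05. The 7 filled points all lie to the right of 0, from 0.25 (Pcdhb16) to 0.46 (Pcdh9).

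The levels themselves spanned a wide range. Pcdhgc3 had the highest mean over all 20 libraries, 99.4 FPKM, followed by Pcdh18 at 53.3, Pcdh7 at 27.3, Cdh5 at 18.8, Pcdh19 at 18.6, Cdh11 at 13.3 and Cdh2 at 10.5. Of these neighbours, Cdh5 and Pcdh19 did not differ beyond their spread, with SDs of 2.89 and 1.74 in Control. The 45 members below the filter included all 15 alpha protocadherins, and 7 members were listed at 0 in at least 10 of the 20 libraries. Fitted without a filter, 0 of these 45 were called (0.549% of all 18588 rows fitted were called in either direction), and 1 had an unadjusted p under 0.05. That one, Pcdh15, a hair-cell tip-link protocadherin, had a median of 0.207 FPKM in Control and 0.149 under P.T.ATBx (limma adjusted p = 0.237 without a filter), named after its values were seen.

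**Figure D2:**
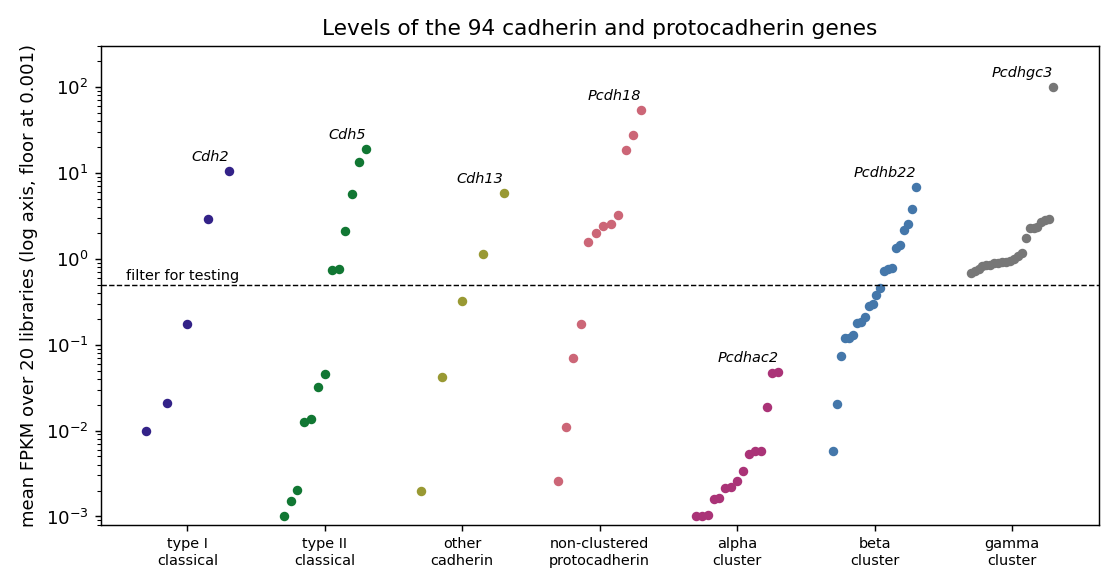
Mean FPKM over 20 libraries (log axis, values under 0.001 drawn at 0.001) of each of the 94 genes, in 7 classes, with the highest member of each class named. All 22 gamma genes lie above the dashed filter line at 0.5 FPKM and all 15 alpha genes below it.

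Among the non-clustered protocadherins, 2 of 8 tested members were higher and 0 lower. Pcdh9, a protocadherin studied mainly in the nervous system, ran from 0.996 through a median of 1.59 to 1.90 FPKM in Control, and from 1.96 through 2.46 to 3.01 in P.T.ATBx. Every P.T.ATBx library lay above every Control library, a separation that 0.0704% of all genes tested showed in the higher direction and 0.0626% in the lower. The means were 1.54 ± 0.269 and 2.50 ± 0.359 FPKM (SD, n = 10 each), a log2 difference of 0.46 (SE 0.07, limma adjusted p = 0.00118). Pcdh10, also called OL-protocadherin, ran from 0.771 through 1.27 to 1.74 FPKM in Control and from 1.52 through 1.90 to 2.27 in P.T.ATBx. The groups overlapped through 1 Control library, Control 10, which lay above the lowest P.T.ATBx library, P.T.ATBx 10, and above 2 others. Its means were 1.24 ± 0.283 and 1.93 ± 0.234 FPKM (SD, n = 10 each), a log2 difference of 0.39 (SE 0.07, limma adjusted p = 0.00583).

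Pcdh17, a protocadherin that organises axons and synapses, missed the threshold. It ran from 1.75 through 2.37 to 2.52 FPKM in Control and from 2.25 through 2.82 to 3.41 in P.T.ATBx. In P.T.ATBx, 9 of 10 libraries lay above the highest Control library, and P.T.ATBx 7 lay among the Control values. The log2 difference was 0.24 (95% interval 0.11 to 0.36, limma adjusted p = 0.0608), and it passed without P.T.ATBx 7 (limma adjusted p = 0.0364) or without Control 2 (limma adjusted p = 0.0477). Pcdh7 was at 25.9 ± 2.68 and 28.6 ± 1.84 FPKM (SD, n = 10 each, log2 difference 0.14, limma adjusted p = 0.223), and all 10 P.T.ATBx libraries exceeded the Control median. Pcdh18 had 0.09, Pcdh19, the X-linked epilepsy gene, had 0.10, and the endothelial protocadherin Pcdh12 had 0.07, with limma adjusted p from 0.442 to 0.701. Pcdh1, an airway epithelial protocadherin, had −0.12 (95% interval −0.28 to 0.03, limma adjusted p = 0.508), and was the 1 tested non-clustered protocadherin with a negative value.

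The type II classical cadherins held 3 higher members of 6 tested. Cdh10, found chiefly in brain, ran from 0.228 through 0.551 to 0.827 FPKM in Control and from 0.767 through 0.943 to 1.15 in P.T.ATBx. Only Control 4 reached into the P.T.ATBx range, and Control 3 was the lowest of all libraries. The means were 0.553 ± 0.175 and 0.942 ± 0.123 FPKM (SD, n = 10 each), a log2 difference of 0.33 (SE 0.06, limma adjusted p = 0.0109). Cdh18, another brain cadherin, ran from 0.447 through 0.523 to 0.799 FPKM in Control and from 0.678 through 0.912 to 1.34 in P.T.ATBx. Here too 1 Control library, Control 10, reached into the P.T.ATBx range. The means were 0.561 ± 0.108 and 0.957 ± 0.220 FPKM (SD, n = 10 each), a log2 difference of 0.32 (SE 0.06, limma adjusted p = 0.0117).

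The depth behind these low values can be read from Cdh18, whose values lay within 0.25 of a whole number of fragments, and by 0.0717 on average, in the 14 libraries with at most 40 fragments. These held 18 to 33 fragments in 9 Control libraries and 27 to 39 in 5 P.T.ATBx libraries. The other 6 libraries, 1 Control and 5 P.T.ATBx, came to 43 to 63 fragments by the same step, too many for whole numbers to be checked. Below the filter the counts were smaller still. Summed over libraries and not adjusted for depth (relative depths summed to 10.5 in Control and 9.68 in P.T.ATBx), Cdh9 had 23 fragments in Control and 10 in P.T.ATBx, Cdh12 had 9 and 16, and Cdh6 had 22 and 19, which is a few fragments per library.

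Cdh19, a type II cadherin known from Schwann cell precursors, was the third. It ran from 3.42 through 5.04 to 6.34 FPKM in Control and from 5.58 through 6.14 to 8.79 in P.T.ATBx. Each P.T.ATBx library exceeded the Control median and 4 exceeded the highest Control library. The means were 4.98 ± 0.821 and 6.51 ± 0.919 FPKM (SD, n = 10 each), a log2 difference of 0.33 (SE 0.08, limma adjusted p = 0.0480). The call was kept on leaving out Control 2, 7 or 9 or P.T.ATBx 3 or 8, and lost on leaving out any other single library (limma adjusted p up to 0.0898). Markers of Schwann cells and neurons were mixed, and their part in the result was not tested. The myelin gene Mbp had a difference of −0.02 and the tubulin gene Tubb3 −0.25, and neither was called (limma adjusted p = 0.955 and 0.129). Below the filter, the myelin gene Ncmap had means of 0.152 and 0.256 FPKM in Control and P.T.ATBx and the neuronal gene Rbfox3 0.0272 and 0.0558, while Sox10, S100b and Syp had lower means in P.T.ATBx and Snap25 was near 0 in both. The defining factor gene Sox10 was at 0.303 ± 0.271 and 0.270 ± 0.181 FPKM (SD, n = 10 each).

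**Figure D3:**
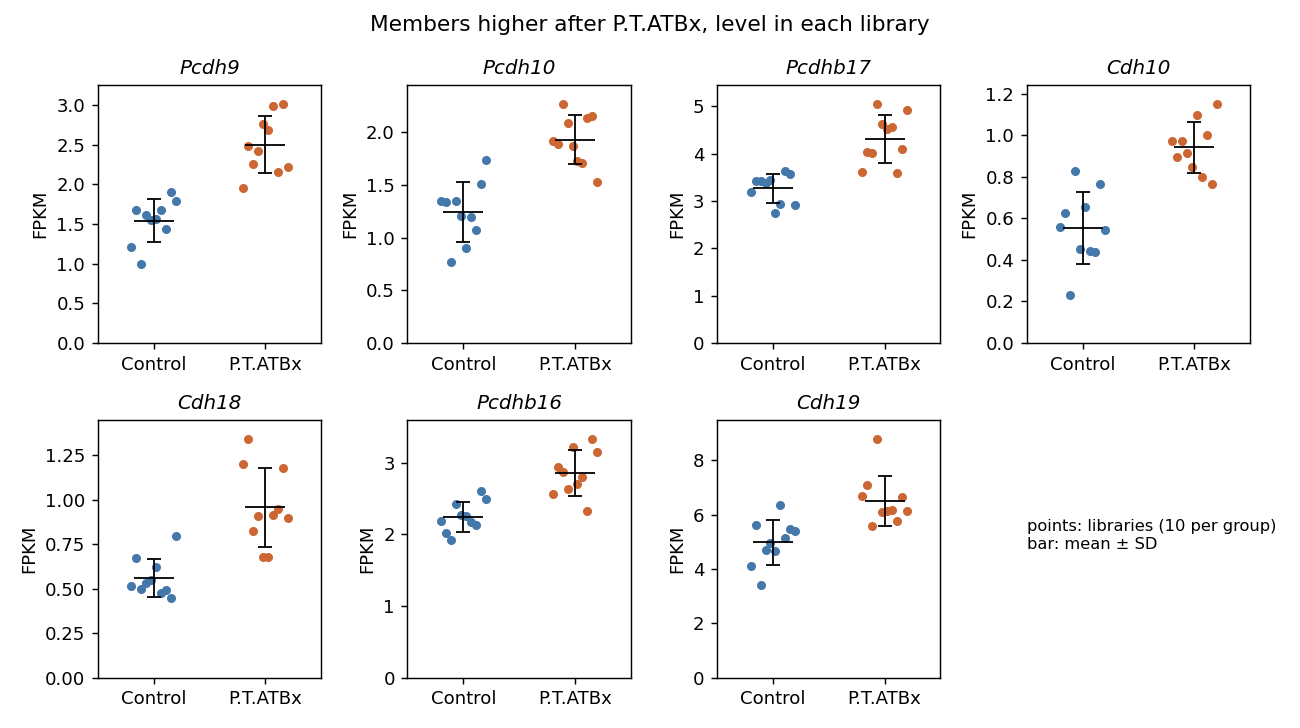
FPKM of the 7 members higher after P.T.ATBx, 1 point per library (10 Control, 10 P.T.ATBx), with bars for the mean ± SD. The groups are fully apart for Pcdh9 and overlap for the other 6.

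The other type II cadherins showed no such difference. Cdh5, which holds endothelial cells together, ran from 14.4 through 19.0 to 22.6 FPKM in Control and from 16.6 through 18.3 to 21.7 in P.T.ATBx. Its groups overlapped almost entirely (log2 difference −0.00, 95% interval −0.16 to 0.15, limma adjusted p = 0.993), and 12 endothelial markers had a median difference of −0.02 with 0 called. Cdh11, a cadherin of fibroblasts and other mesenchymal cells, ran from 10.3 through 13.3 to 18.3 FPKM in Control and from 7.17 through 13.4 to 16.2 in P.T.ATBx (log2 difference −0.08, 95% interval −0.30 to 0.14, limma adjusted p = 0.802). The 10 fibroblast markers had a median of −0.13, 9 were negative, and the collagen-binding proteoglycan gene Dcn was called lower (−0.31, limma adjusted p = 0.00125). Cdh24 was at 1.97 ± 0.233 and 2.21 ± 0.248 FPKM (SD, n = 10 each, log2 difference 0.11, limma adjusted p = 0.368).

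Positions of the called type II and non-clustered genes (GRCm38, RefSeq) place several beside relatives with very low levels. Cdh10 (chromosome 15, 18818869 to 19016206) and Cdh18 (chromosome 15, 22548898 to 23477491) flank Cdh12 (20448878 to 21598421), which had a mean of 0.0125 FPKM, and Cdh9 (16728550 to 16857138) lies before them at 0.0318. Cdh19 (chromosome 1, 110888002 to 110977601) follows Cdh7 (109982237 to 110145272) at 0.00201 and Cdh20 at 0.00153 FPKM. Pcdh9 (chromosome 14, 93013700 to 93892834) and Pcdh17 (84443563 to 84537565) lie on either side of Pcdh20 at 0.0700 FPKM, and Pcdh10 (chromosome 3, 45378398 to 45434579) lies on the same chromosome as Pcdh18 (49743291 to 49757383). Pcdh9 and Cdh18 span 879 and 929 kb. Of the 265 tested genes of at least 300 kb, 7 (2.64%) were higher, Pcdh9 and Cdh18 among them, and 0.755% were lower. Of shorter genes, 0.416% were higher and 0.376% lower. The part of gene span in these results was not tested.

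The 250 bases before the annotated start of the 4 members that stayed higher after rescaling to 1 sum are shown because all 4 were called. They are from the RefSeq promoter table (GRCm38.p6), which matched 22 of the 94 members, and are written 5′ to 3′ along the gene, with matches to the searched motifs in capitals. The windows are chr14:93890680-93890929 on the minus strand for Pcdh9, chr3:45378148-45378397 on the plus strand for Pcdh10, chr15:18820079-18820328 on the plus strand for Cdh10 and chr15:23036213-23036462 on the plus strand for Cdh18. Those of Pcdh9, Cdh10 and Cdh18 precede starts that lie inside the annotated span of the gene.
Pcdh9: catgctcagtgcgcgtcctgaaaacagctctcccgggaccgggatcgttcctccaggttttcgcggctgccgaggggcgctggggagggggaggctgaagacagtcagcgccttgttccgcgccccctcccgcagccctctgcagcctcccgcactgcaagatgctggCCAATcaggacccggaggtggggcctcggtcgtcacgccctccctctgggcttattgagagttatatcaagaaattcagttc
Pcdh10: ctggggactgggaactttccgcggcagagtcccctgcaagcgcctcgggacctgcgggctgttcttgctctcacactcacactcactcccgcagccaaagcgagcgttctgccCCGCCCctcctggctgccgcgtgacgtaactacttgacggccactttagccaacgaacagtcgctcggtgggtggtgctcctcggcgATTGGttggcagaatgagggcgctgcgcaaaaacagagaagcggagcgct
Cdh10: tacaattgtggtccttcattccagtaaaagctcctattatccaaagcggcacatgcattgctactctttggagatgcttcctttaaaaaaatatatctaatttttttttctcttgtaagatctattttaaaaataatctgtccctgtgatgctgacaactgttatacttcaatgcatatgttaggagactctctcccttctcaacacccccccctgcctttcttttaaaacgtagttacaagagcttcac
Cdh18: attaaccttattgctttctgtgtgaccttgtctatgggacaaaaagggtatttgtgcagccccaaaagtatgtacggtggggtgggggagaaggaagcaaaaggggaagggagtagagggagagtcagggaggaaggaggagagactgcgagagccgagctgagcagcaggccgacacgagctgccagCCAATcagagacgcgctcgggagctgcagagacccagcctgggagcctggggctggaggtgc
Searched on both strands, with the sequences in view, were CCAAT (the box named for it), GGGCGG (the GC box), TATAAA (the TATA box), TGANTCA (the AP-1 motif) and CACCTG (an E-box that Snai1 and Zeb1 can bind), and no match overlapped another. CCAAT occurred once each in Pcdh9 (on the gene's strand, 82 to 78 bases before the start), Cdh18 (on the gene's strand, 62 to 58 bases before) and Pcdh10 (on the other strand, 50 to 46 bases before). It occurs in 33.8% of all 32851 windows of this length. GGGCGG occurred in Pcdh10 and occurs in 32.7% of all windows, and the Cdh10 window held none of the 5. None of the 4 held TATAAA, which 12.4% of all windows hold, or TGANTCA, which 6.75% hold, or CACCTG, which 17.2% hold. The windows also differed in composition: GC content was 63.6% for Pcdh9, 63.2% for Pcdh10 and 58.0% for Cdh18 but 36.8% for Cdh10, with a median of 52.4% over all windows. Cdh10 held 2 CpG and Pcdh10 held 22.

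Among the beta protocadherins, each encoded by a single exon, 2 of 9 tested members were higher and 0 lower. Pcdhb17 ran from 2.75 through 3.39 to 3.64 FPKM in Control and from 3.59 through 4.31 to 5.05 in P.T.ATBx. The overlap was slight: 8 of 10 P.T.ATBx libraries lay above the highest Control library, and 9 of 10 Control libraries lay below the lowest P.T.ATBx library. The means were 3.27 ± 0.303 and 4.30 ± 0.509 FPKM (SD, n = 10 each), a log2 difference of 0.31 (SE 0.06, limma adjusted p = 0.00622). Its neighbour Pcdhb16 ran from 1.92 through 2.22 to 2.60 FPKM in Control and from 2.33 through 2.84 to 3.34 in P.T.ATBx. Again 8 of 10 P.T.ATBx libraries lay above the highest Control library. The means were 2.25 ± 0.210 and 2.86 ± 0.316 FPKM (SD, n = 10 each), a log2 difference of 0.25 (SE 0.05, limma adjusted p = 0.0220).

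All 9 tested beta genes had positive differences, with a median of 0.16, and the 7 not called had limma adjusted p from 0.0649 upwards. Pcdhb22, the highest beta gene, was at 6.34 ± 0.622 and 7.41 ± 0.552 FPKM (SD, n = 10 each, log2 difference 0.20, 95% interval 0.09 to 0.30, limma adjusted p = 0.0649). In 7 of 10 P.T.ATBx libraries it exceeded the highest Control library. Levels differed along the cluster. The 7 genes from Pcdhb16 to Pcdhb22, at the end next to the gamma cluster, had means of 0.711 to 6.87 FPKM and differences of 0.10 to 0.31. Pcdhb1 to Pcdhb15 had means of 0.00576 to 0.772 FPKM, only 2 of them passed the filter, and 12 of 15 were positive in the fit without a filter, where a low level keeps the log2 difference small. Summed over the 22 genes the level was 20.7 ± 1.69 FPKM in Control, from 18.05 to 23.2, and 25.0 ± 1.66 in P.T.ATBx, from 21.6 to 27.2 (SD, n = 10 each), 1.20 times as high. All 10 P.T.ATBx sums lay above the Control median. Beta genes resemble one another closely in sequence, and the division of reads between them is uncertain.

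Of the 13 beta genes below the filter, 10 had a higher and 3 a lower value in P.T.ATBx, and limma without a filter called 0, with 0 at an unadjusted p under 0.05. Pcdhb3, the highest of them, was at 0.416 ± 0.141 and 0.501 ± 0.155 FPKM (SD, n = 10 each), 1.21 times as high. Ratios of means were 1.26 for Pcdhb10, 1.25 for Pcdhb12, 1.19 for Pcdhb15 and 1.18 for Pcdhb9, and 0.894 for Pcdhb13, 0.943 for Pcdhb8 and 0.454 for Pcdhb6.

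**Figure D4:**
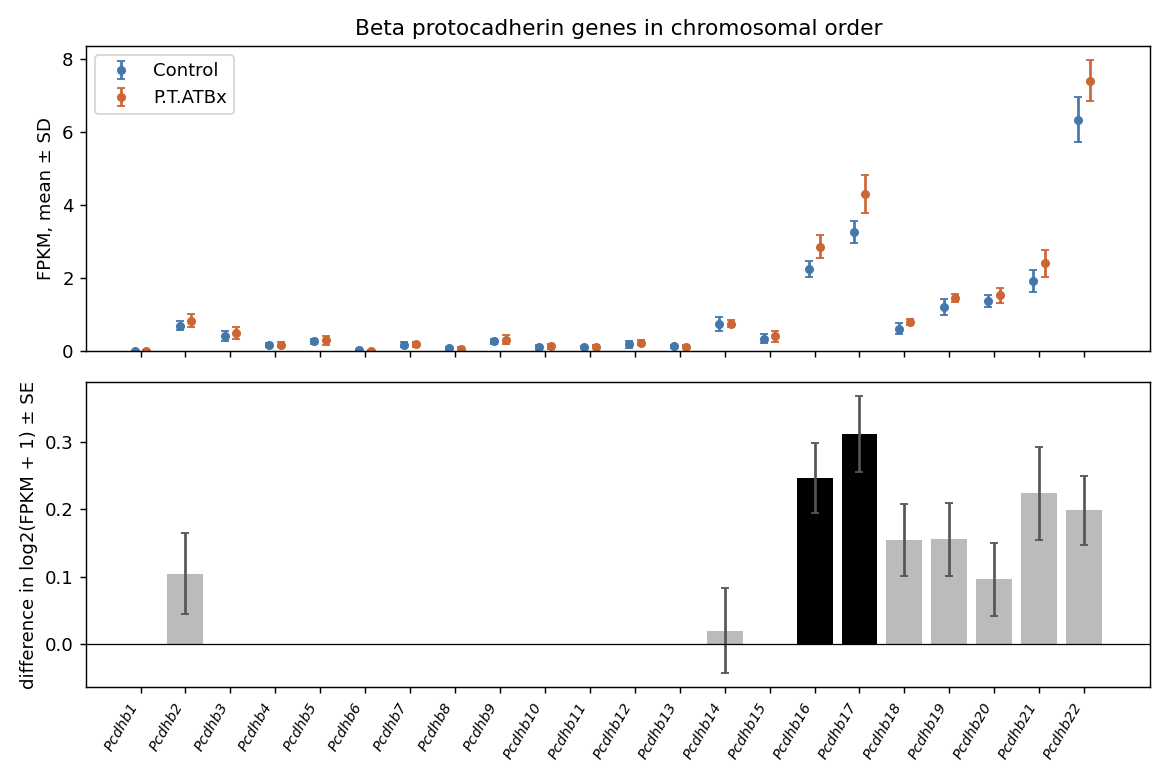
Beta protocadherin genes in chromosomal order. The upper panel shows the mean ± SD in FPKM for Control and P.T.ATBx (n = 10 each), and the lower panel the limma log2 difference ± SE for the 9 tested genes, black where the adjusted p was under 0.05. The highest levels and the 2 called differences lie among Pcdhb16 to Pcdhb22.

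No gamma gene was called and no alpha gene passed the filter, and the difference between clusters was not tested. Gamma genes each join their own exon to a set of constant exons that all gamma genes share, so how reads were split among the 22 members is uncertain. Of the 22 gamma genes, all tested, 0 were called, 12 were positive and 10 negative, with a median of 0.02 and a range from −0.13 (Pcdhgb7, limma adjusted p = 0.398) to 0.17 (Pcdhga1, limma adjusted p = 0.264). One of them, Pcdhga1, had an unadjusted p under 0.05. Pcdhgc3, a C-type isoform, took 73.0% to 80.2% of the summed gamma FPKM. It ran from 82.2 through 100.8 to 112.6 FPKM in Control and from 91.1 through 96.9 to 114.1 in P.T.ATBx. Its log2 difference was −0.04 (95% interval −0.14 to 0.07, limma adjusted p = 0.805). The other 21 had means of 0.684 to 2.90 FPKM. In the alpha cluster, 250 of 300 values were under 0.001 FPKM while 0 were exactly 0, and the highest single value was 0.182 FPKM. Pcdhac2, the highest alpha gene by mean, averaged 0.0410 FPKM in Control tumours and 0.0547 after P.T.ATBx. Over all libraries its mean was 0.0479 FPKM, close to the 0.0465 of Pcdha9. The annotated spans of Pcdhac2 and Pcdha9 overlap (chromosome 18, ending at 37187663 and 37187657), and how reads were split among alpha genes is uncertain too.

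Type I and other cadherins had negative or near-zero values. Cdh1, E-cadherin, which holds epithelial sheets together, ran from 2.24 through 2.92 to 4.60 FPKM in Control and from 1.99 through 2.49 to 3.17 in P.T.ATBx. Control 1, 3, 9 and 10 lay above every P.T.ATBx library and the other 6 Control libraries lay among them. The means were 3.27 ± 0.846 and 2.56 ± 0.405 FPKM (SD, n = 10 each), a log2 difference of −0.24 (95% interval −0.45 to −0.04, p = 0.0198, limma adjusted p = 0.264). Cdh2, N-cadherin, ran from 8.57 through 10.5 to 11.9 FPKM in Control and from 9.54 through 10.2 to 12.3 in P.T.ATBx (log2 difference −0.01, 95% interval −0.12 to 0.10, limma adjusted p = 0.946), and was the higher of the pair in every library. Cdh3, P-cadherin of basal epithelium, had 132 fragments over the Control and 115 over the P.T.ATBx libraries, again not adjusted for depth, and the muscle cadherin Cdh15 had 6 and 4. Cdh13, a cadherin anchored by lipid and without a tail, was at 6.03 ± 0.825 and 5.55 ± 0.638 FPKM (SD, n = 10 each, log2 difference −0.10, limma adjusted p = 0.574). Cdh26 had −0.12 (limma adjusted p = 0.713), and the intestinal cadherin Cdh17 lay below the filter at 0.330 and 0.315 FPKM.

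Epithelial markers varied widely between libraries. The summed level of 10 simple epithelial markers ran from 1.29 to 184.0 FPKM in Control and from 10.4 to 54.4 in P.T.ATBx, the 7 tested had negative differences with 0 called, and the intestinal markers Vil1, Cdx1 and Cdx2 were below the filter, Cdx2 at 0 in every library. Keratinocyte markers summed to 5.36 to 16.7 and 5.64 to 15.7 FPKM. The relation of Cdh1 to the score of 6 tested keratinocyte markers was positive in both groups but did not pass after adjustment. Pearson r was 0.82 in Control (n = 10, permutation p = 0.00601, adjusted p = 0.0579 over 22 relations) and 0.69 in P.T.ATBx (n = 10, permutation p = 0.0230, adjusted p = 0.116). Spearman rho was 0.70 (permutation p = 0.0304, adjusted p = 0.0960) and 0.71 (permutation p = 0.0263, adjusted p = 0.0960). Without the 2 libraries farthest from the median score r was 0.81 and 0.55. Against the score of the 7 tested simple epithelial markers, Cdh1 was also positive and did not pass. Pearson r was 0.54 in Control (n = 10, permutation p = 0.107, adjusted p = 0.262) and 0.67 in P.T.ATBx (n = 10, permutation p = 0.0336, adjusted p = 0.116). Spearman rho was 0.44 (permutation p = 0.203, adjusted p = 0.447) and 0.66 (permutation p = 0.0433, adjusted p = 0.119). The part of epithelial content in the Cdh1 values was not tested.

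The relation of Cdh5 to the endothelial score was likewise positive and did not pass after adjustment, with r of 0.67 in Control (n = 10, permutation p = 0.0341, adjusted p = 0.116) and 0.78 in P.T.ATBx (n = 10, permutation p = 0.00522, adjusted p = 0.0579), rho of 0.70 (permutation p = 0.0305, adjusted p = 0.0960) and 0.71 (permutation p = 0.0275, adjusted p = 0.0960), and r of 0.58 and 0.49 without the 2 extreme libraries. Of the 22 relations, 1 passed the adjusted threshold by rank, Cdh3 with the keratinocyte score in Control (rho 0.90, n = 10, permutation p = 0.000830, adjusted p = 0.0183), where Pearson r was 0.82 (permutation p = 0.00789, adjusted p = 0.0579) and was 0.64 without the 2 extreme libraries. In P.T.ATBx the relation of Cdh3 did not pass, with rho 0.73 (n = 10, permutation p = 0.0199, adjusted p = 0.0960). Pearson r there was 0.60 (permutation p = 0.0658, adjusted p = 0.181), and 0.93 without the 2 extreme libraries. Cdh3 lay below the filter, with a mean of 0.173 FPKM over all libraries. Cdh11, Cdh2, Pcdh18 and Pcdh7 showed no relation to the fibroblast score past the threshold (r from −0.30 to 0.21, 8 values, adjusted p from 0.708 to 0.948). Pcdh12, Cdh13 and Pcdh17 showed none to the endothelial score. For Pcdh12 in Control, rho was 0.81 (permutation p = 0.00768, adjusted p = 0.0845) and r 0.67 (permutation p = 0.0369, adjusted p = 0.116). In P.T.ATBx its rho was 0.49 and r 0.36. Pearson r in Control and P.T.ATBx was 0.41 and 0.20 for Cdh13, and −0.44 and 0.15 for Pcdh17.

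**Figure D5:**
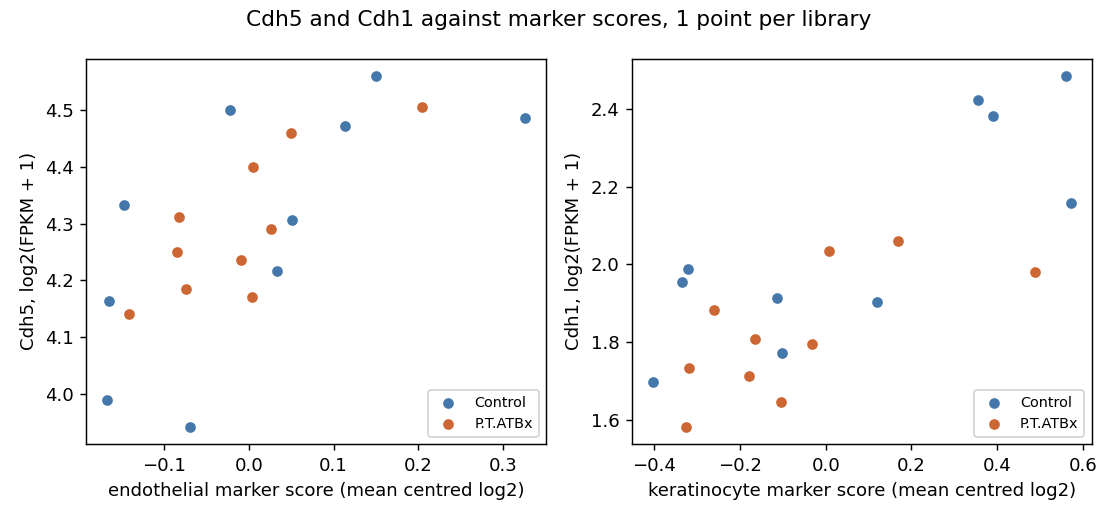
Cdh5 against the endothelial marker score (left) and Cdh1 against the keratinocyte marker score (right), 1 point per library, both axes on the log2(FPKM + 1) scale with scores centred per gene. Control 1, 3, 9 and 10 hold the 4 highest Cdh1 values and 4 of the 5 highest keratinocyte scores.

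Other genes of the adhesion pathway were not called. Of 95 genes in 9 lists, 87 were in the table and 62 were tested, and limma called 0, with 7 (11.3%) at an unadjusted p under 0.05, against 13.6% of all genes tested. The catenins, which link cadherin tails to actin, had 7 tested members with a median of −0.03, and Ctnnb1, beta-catenin, was at 141.6 ± 8.59 and 146.4 ± 8.45 FPKM (SD, n = 10 each, log2 difference 0.05, limma adjusted p = 0.669). Pkp4, a catenin relative, had −0.06 (limma adjusted p = 0.637). In the list of junction linkers and nectins, Ezr had −0.12 and Pvrl1, nectin-1, −0.11 (limma adjusted p = 0.365 and 0.528). None of the 9 desmosomal cadherins passed the filter. The giant cadherin Fat4 had 0.18 and Dchs1, its binding partner, −0.10 (limma adjusted p = 0.381 and 0.459). The calsyntenins Clstn1 and Clstn3, synaptic membrane proteins with cadherin repeats, had −0.03 and 0.01 (limma adjusted p at least 0.828).

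Among transcription factors that repress Cdh1 in epithelial-mesenchymal transition, Snai1 was at 13.6 ± 1.66 and 16.9 ± 3.00 FPKM (SD, n = 10 each, log2 difference 0.29, limma adjusted p = 0.132), and Zeb1 had 0.06 (limma adjusted p = 0.710). The gamma-secretase subunit gene Aph1b had 0.17 (limma adjusted p = 0.0753) and the protease gene Mmp9 −0.25 (limma adjusted p = 0.252). Among protocadherin partners, the WAVE complex genes Abi2 and Wasf1 had 0.07 and −0.18 (limma adjusted p = 0.323 and 0.339), and Cyfip1 was listed at 0 in every library, which can be a failed estimate. Among regulators of the protocadherin clusters, Dnmt3b, a DNA methyltransferase that marks their promoters in development, had 0.12 (limma adjusted p = 0.335) and Stag2, a cohesin subunit, had 0.06 (limma adjusted p = 0.618).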

How the data were processed

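Total RNA of MC38 tumours was sequenced as 20 stranded libraries, per the labels' protocols. The authors deposited 1 table of FPKM with 23402 rows, of which 4814 were at 0 in every library. The reference build was mm10, per the submitters' processing notes, and for the aligner, counting tool and annotation the sources used here give nothing. Read depth is unknown. Relative depth was read from the step between low values in 343 genes, and fragments from whole multiples of that step.

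Rows with a mean of at least 0.5 FPKM (12788) were fitted as log2(FPKM + 1) in limma 3.58.1 under R 4.3.3 with group as the only term, robust trended moderation, two-sided tests and Benjamini-Hochberg adjustment at 0.05. The script was tested on simulated data. Members, lists, classes and the rule for naming genes (called members, the 3 smallest p-values in each direction, preset members, the highest gene of each cluster, and of each pathway list the called genes or else the 2 of smallest p) were chosen with earlier results of these data known. Relations used two-sided permutation tests with 100000 resamples. Marker scores average centred log2 values over tested markers. Names and coordinates came from RefSeq (GRCm38.p6), where all 94 members matched by gene number. Some marker genes are not reported here.

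Alternatives were a pseudocount of 0.1, no filter, a filter at 1 FPKM, quantile, median-of-ratios and equal-sum (TPM) scaling, limma's arrayWeights, plain moderation, the replicate number as a block and leaving out each library. Leaving out the 4 libraries of highest summed FPKM was added after seeing the data.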

Additional observations from a re-analysis of the deposited data

Results flagged for a closer look

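In 8 of the 98 combinations of a tested member and a group, 1 library stood apart by Dixon's criterion for 10 values on the log2 scale. Chance alone sets a library apart in about 5% of groups. Cdh19 reached 8.79 FPKM in P.T.ATBx 4, where the other 9 libraries lay between 5.58 and 7.10. Cdh11 was at 7.17 FPKM in P.T.ATBx 2 against 11.7 to 16.2 in the others. In the same library Pcdhgc3 was at 114.1 FPKM against 91.1 to 101.0. Control 1 was lowest of its group for Pcdh19 (13.95 FPKM against 16.7 to 20.1), Pcdhga3 (1.07 against 1.49 to 2.00) and Pcdhgb8 (1.42 against 2.05 to 2.44), and it had the highest summed FPKM of all libraries (752782). Pcdhga7 was at 0.324 FPKM in P.T.ATBx 4 against 0.814 to 1.57, and Pcdhgc4 at 1.84 in Control 3 against 0.724 to 1.23, both values that depend on how reads were split among gamma genes.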

How the results depend on the processing

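Rescaling to 1 sum gave 4 members higher, with Pcdhb17 (adjusted p = 0.0650, limma), Cdh19 (0.145) and Pcdhb16 (0.155) lost, and 20 genes higher and 29 lower overall. Without the 4 libraries of highest summed FPKM, 3 members and 31 genes were higher, and Cdh10 (0.0661), Pcdhb16 (0.0661), Cdh18 (0.0935) and Cdh19 (0.127) were lost. With arrayWeights 154 genes were higher and 152 lower, and 9 members were higher, Pcdh17 and Pcdhb22 added. Cdh19 was also lost without a filter (0.0696) and with plain moderation (0.0519), and a filter at 1 FPKM leaves Cdh10 and Cdh18 untested. Leaving out 1 library gave 6 to 8 members higher, 0 lower, and 38 to 104 genes higher and 31 to 89 lower overall. Of the counts over all genes, the lowest came without P.T.ATBx 4 and the highest without Control 1. Pcdh9, Pcdh10, Cdh10, Cdh18, Pcdhb16 and Pcdhb17 were called in all 20 such fits. Directions turned for Cdh5 (0.0136 with arrayWeights and 0.0097 without the 4 libraries, −0.0421 to 0.0267 over the 20 fits), Cdh2 (−0.0433 to 0.00425 over the 20 fits) and Cdh11 (−0.118 to 0.00466 over the 20 fits, positive only without P.T.ATBx 2). The causes of these shifts were not tested.

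The groups share replicate numbers, and the labels do not say what a number stands for. Correlations of deviations were over 0.1 in 5 of 10 same-numbered pairs (median 0.08, lowest −0.32), with a median of 0.01 for different numbers. Of the 10 Control libraries, 3 correlated best with their own number. These values cannot tell whether the numbers mark pairs. With the replicate number as a block, 8 members were higher (Pcdhb22 added) and 65 genes were higher and 59 lower overall.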
